A study of Mus musculus with 31 samples.

Results

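The genes described here are 7 genes used as markers of mesothelium, the sheet of flat cells that covers the lung and lines the pleural cavity: Msln, Upk3b, Upk1b, Lrrn4, Wt1, Krt19 and Gpm6a. They were chosen by name, as known markers, and not by a threshold on their values, but with earlier results of these data known. All 7 were found among the 55681 non-control probes of the array, each by 1 probe matched through its RefSeq transcript, and all 7 are among the 29310 genes or unnamed transcripts that were tested. Mesothelial cells secrete a lubricating fluid, carry apical microvilli and a glycocalyx, and form the outer barrier of the lung. They arise from the embryonic coelomic lining under the transcription factor Wt1, and after injury they can loosen their junctions and take on a mesenchymal form. In a whole lung they make up a thin surface layer, so their RNA is a small share of what is measured. A lower signal in whole tissue can come from fewer cells of a type or from less RNA per cell, and these arrays cannot tell them apart.

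The study followed the lung after oleic acid, a fatty acid that injures the pulmonary capillary wall when it reaches the lung through a vein. Female C57BL/6 mice, 6 weeks old and under xylazine and ketamine, received a tail vein injection of 200 µl, either physiological serum (called saline here) or oleic acid at 1.2 µl per g of body weight. Whole lungs were taken at 1, 1.5, 3, 4, 18 and 24 h and each of 31 lungs was hybridised to 1 Agilent array with 1 colour. Saline was given to 3 mice at 1 h and to 2 at each other time, and oleic acid to 3 mice at each time. The groups differ only in the injected liquid and the time. No uninjected mouse is among them, so every value below is that of an anaesthetised, injected animal.

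The spike-in controls gave slopes of 0.937 to 1.06 on 29 arrays, but 1.66 on replicate 3 of oleic acid at 1.5 h and 0.751 on its replicate 2 at 3 h. These 2 arrays were left out, which leaves 13 saline and 16 oleic acid arrays. The share of spots well above background ran from 51.2% to 82.4% on the 29 arrays, and Pearson r between any pair of them from 0.913 to 0.991. The arrays lay on 4 slides. All 1 h arrays were on slide 1, all 4 h and the saline 18 h arrays on slide 3, and on slide 4 all 24 h arrays with those of oleic acid at 18 h, so at 18 h treatment and slide cannot be told apart. The number of arrays limits the precision. The labels do not say which arrays came from separate experiments, so p-values measure only the spread between these samples.

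The probes show which stretch of each transcript was read, since 1 probe of 60 bases stands for each gene here. Bases 31 to 60 of each are printed 5′ to 3′ as the scanner files give them, with AATAAA, the letters of the polyadenylation signal, in capitals:
Msln: ggactcttgaactcAATAAAcagtggcata
Upk3b: tggctattaatgacagtcggctacctagcc
Upk1b: gacgactctcattcctgtctatgtttaatg
Lrrn4: actatacatttctaagtgggttatccaagc
Gpm6a: gattctttctaatgctacaagaatgctgtg
Wt1: atcttacagtgtattgatgataatactaaa
Krt19: cagatccagagcgtgatcagcggttttgaa
On mm9, the build of the files, the Msln probe lies at chr17:25885569-25885628 on the minus strand and the Upk3b probe at chr5:136520522-136520581 on the plus strand. Upk1b is read at chr16:38773859-38773918 (minus), Lrrn4 at chr2:132694490-132694549 (minus) and Gpm6a at chr8:56145539-56145598 (plus). Wt1 is read at chr2:105013656-105013715 (plus) and Krt19 at chr11:100002392-100002451 (minus). The letters AATAAA occur in the printed part of the Msln probe alone, and in 8.16% of bases 31 to 60 of all 55681 probes, searched on the strand as printed. Upk1b was spotted 10 times on each array and the others once. The 10 Upk1b spots of an array differed by a pooled SD of 0.0619 on the log2 scale, while arrays of a group differed by 0.217, so most of the spread of this gene lies between lungs or their labelling and not between spots.

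Levels are log2 values of the background-subtracted signal, from which the 75th percentile of all spots of that array was subtracted. A level of 0 is thus as bright as that percentile, and 1 is a doubling. Levels of different probes are not compared. All 7 probes lay well above background on every one of the 31 arrays and none was saturated, so the label of the set holds as far as that each gene is detected in every lung. Of 16 other genes used as mesothelial markers, 15 were measured. Calb2, the calcium-binding calretinin of mesothelioma pathology, was too dim.

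Msln encodes mesothelin, a lipid-anchored surface protein that binds the mucin Muc16. Its level was even across the study. On the saline arrays it was 4.49, 4.86 and 4.74 at 1 h, 4.81 and 5.00 at 1.5 h, 4.90 and 5.07 at 3 h, 5.11 and 4.79 at 4 h, 4.82 and 4.54 at 18 h, and 4.77 and 5.05 at 24 h. On the oleic acid arrays it was 4.86, 5.12 and 4.92 at 1 h, 4.70 and 4.69 at 1.5 h, 4.68 and 5.30 at 3 h, 4.69, 4.72 and 4.66 at 4 h, 4.97, 4.64 and 4.86 at 18 h, and 4.67, 5.01 and 4.96 at 24 h. The highest group mean, 4.99 in oleic acid at 3 h, and the lowest, 4.68 in saline at 18 h, were 0.30 apart, and every group overlapped its neighbour in the order of means. The residual SD of Msln, 0.186, was lower than that of all but 14.5% of features.

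Krt19, the smallest acidic keratin, is found in simple epithelia of the airway as well as in mesothelium. It too was even, between 4.82 (saline 1 h replicate 1) and 5.57 (saline 1.5 h replicate 1), with a residual SD of 0.201. The saline 24 h lungs (5.50 and 5.54) gave its highest mean and the oleic acid 4 h lungs (5.00, 5.19 and 4.93) its lowest. Both saline 24 h arrays lay above the oleic acid 24 h arrays (5.25, 5.33 and 5.17), while at 18 h both saline arrays (5.11 and 5.02) lay below those of oleic acid (5.27, 5.42 and 5.27). Again every group overlapped its neighbour in the order of means.

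Upk3b and Upk1b are uroplakins, membrane proteins best known from the plaques of the bladder surface, and Upk1b is a tetraspanin. Upk3b was 0.47, 1.25 and 1.54 on the saline 1 h arrays against 1.69, 1.73 and 1.83 with oleic acid. At 1.5 h the order was turned, with 2.03 and 2.21 in saline and 1.73 and 1.68 with oleic acid. At the later times it was 1.85 and 1.89 against 1.94 and 1.82 (3 h), 1.47 and 1.08 against 1.27, 1.05 and 1.51 (4 h), 1.17 and 1.52 against 1.78, 1.43 and 1.94 (18 h), and 0.71 and 1.72 against 1.68, 1.59 and 1.87 (24 h), saline first. The 2 saline 1.5 h lungs were the highest of all groups and saline 1 h replicate 1 the lowest array. Upk1b ran from 0.26 on saline 24 h replicate 1 to 1.43 on saline 1.5 h replicate 2. Its saline means lay between 0.57 (24 h) and 1.33 (1.5 h) and its oleic acid means between 0.90 (24 h) and 1.21 (1.5 h). Of 11 steps between neighbours in the order of means, the groups overlapped at 8 for Upk3b and at 10 for Upk1b.

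Lrrn4 encodes a membrane protein with leucine-rich repeats that marks mesothelial cells in several organs. It was the gene of the set in which treatments were most often apart. On saline arrays its level was -0.49, 0.08 and 0.14 at 1 h, 0.58 and 0.68 at 1.5 h, 0.37 and 0.26 at 3 h, -1.02 and -0.33 at 4 h, -0.16 and 0.28 at 18 h, and -0.12 and -0.17 at 24 h. With oleic acid it was 0.28, 0.15 and 0.44 at 1 h, 0.42 and 0.63 at 1.5 h, 0.42 and 0.25 at 3 h, -0.14, -0.26 and 0.23 at 4 h, 0.39, 0.43 and 0.82 at 18 h, and 0.55, 0.19 and 0.64 at 24 h. Every oleic acid array lay above every saline array of its time at 1, 4, 18 and 24 h, and the groups overlapped at 1.5 and 3 h. The lowest mean was that of the saline 4 h lungs, -0.67, which was 0.53 under that of the saline 24 h lungs with no overlap between these groups. One of the saline 4 h lungs, at -0.33, lay above the lowest saline 1 h lung, at -0.49. The other 10 steps in the order of means overlapped.

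Gpm6a, a proteolipid of neuronal and mesothelial membranes, followed a like course. In saline its level was 0.48, 1.11 and 1.27 at 1 h, 1.69 and 1.86 at 1.5 h, 1.67 and 1.45 at 3 h, 0.67 and 0.57 at 4 h, 1.07 and 1.53 at 18 h, and 0.28 and 1.15 at 24 h. With oleic acid it was 1.5, 1.30 and 1.78 at 1 h, 1.58 and 1.91 at 1.5 h, 1.78 and 1.52 at 3 h, 1.52, 0.96 and 1.53 at 4 h, 1.31, 0.89 and 1.85 at 18 h, and 1.44, 0.62 and 1.76 at 24 h. Groups stood apart at 1 h and 4 h, with oleic acid above. Its residual SD of 0.379 was the widest of the 7.

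Wt1, the transcription factor that keeps mesothelial identity and is also active in the kidney and gonads, had a residual SD of 0.321. Its level in saline was -1.12, -1.15 and -0.92 at 1 h, -0.45 and 0.08 at 1.5 h, -0.22 and -0.42 at 3 h, -1.61 and -1.01 at 4 h, -0.42 and -0.35 at 18 h, and -1.65 and -0.83 at 24 h. With oleic acid it was -0.88, -1.05 and -0.38 at 1 h, -0.83 and -0.53 at 1.5 h, -0.03 and -0.04 at 3 h, -1.28, -1.05 and -0.41 at 4 h, -0.54, -0.79 and -0.20 at 18 h, and -0.84, -1.06 and -0.48 at 24 h. Both oleic acid arrays lay below saline at 1.5 h and above it at 3 h. The 12 group means spanned 1.27, with every group overlapping its neighbour in that order.

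**Figure D1:**
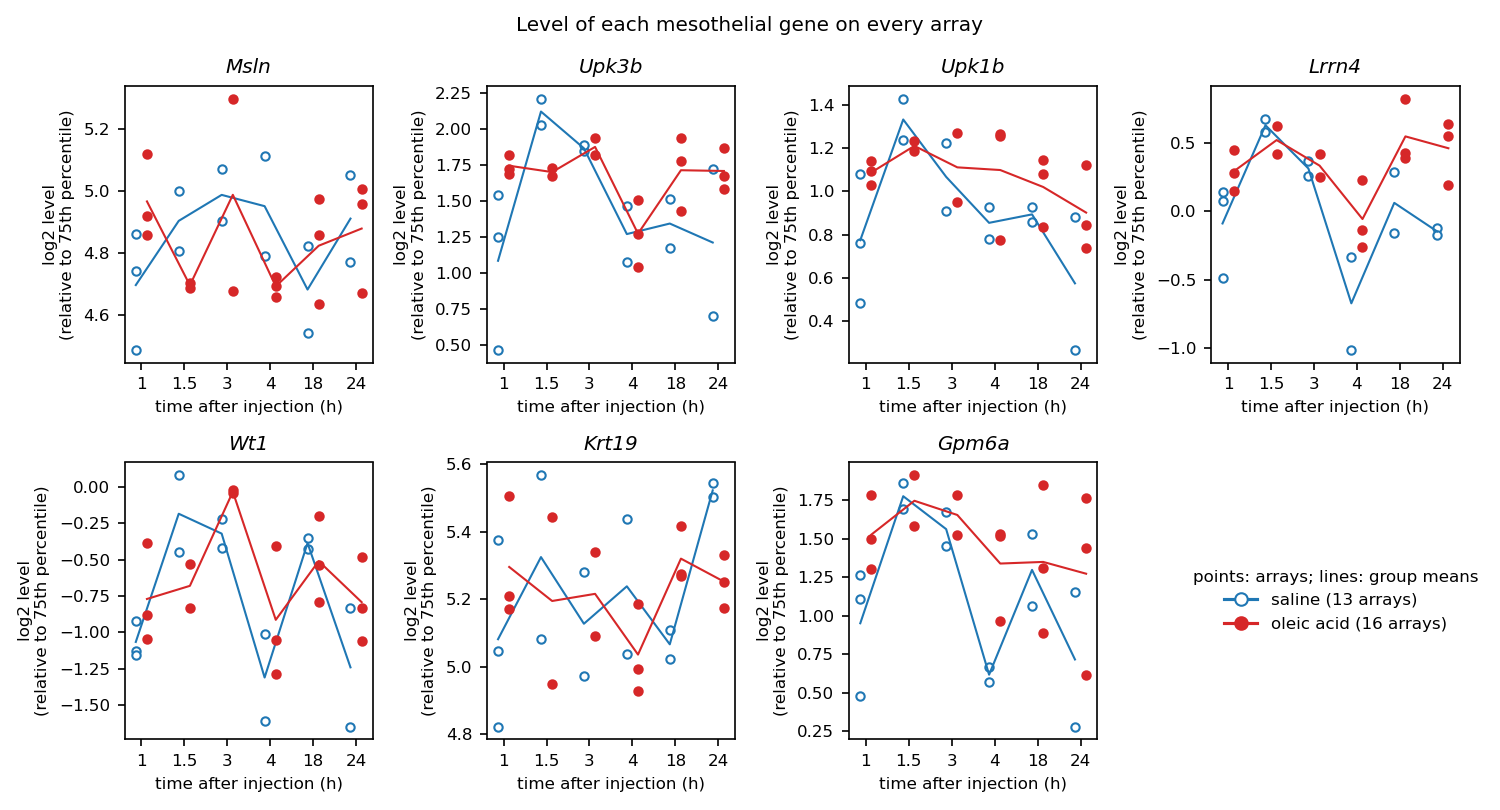
Log2 level of each gene after subtraction of the array's 75th percentile (vertical axis, scaled per gene) against time after injection in h (horizontal axis, evenly spaced), with 1 point per array and lines through group means (open blue points are the 13 saline and filled red points the 16 oleic acid arrays). Upk3b, Upk1b, Lrrn4 and Gpm6a had their highest group mean in saline at 1.5 h, and Lrrn4, Wt1 and Gpm6a their lowest in saline at 4 h.

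The main comparison was that of oleic acid with saline at each time, which asks whether the injury alters the mesothelial genes and when. No gene of the set passed an adjusted p of 0.05 at any of the 6 times (limma, Benjamini-Hochberg over all features). Few features of the whole array did: 0% at 1 h and 3 h, 0.00341% at 1.5 h and at 4 h, 0.0239% at 18 h and 0.0136% at 24 h. The sign of the differences was counted over the 7 genes at each time. All 7 lay above 0 at 1 h (median 0.31, beside 0.04 over all features), none at 1.5 h (median -0.13, beside -0.03) and all 7 at 3 h (median 0.04). The 3 h differences were near 0, with Msln at 0.00 and only Wt1 above 0.1, and without oleic acid 3 h replicate 1 those of Upk3b (-0.05), Upk1b (-0.12), Lrrn4 (-0.06) and Gpm6a (-0.04) turned. At 4 h 5 of 7 lay above 0 (median 0.25), at 18 h 6 (median 0.14) and at 24 h 5 (median 0.45). The genes vary together between arrays, as shown further on, so a shared sign at 1 time is not 7 separate observations.

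At 1 h every oleic acid array lay above every saline array for 3 genes, Upk3b, Lrrn4 and Gpm6a, as it did for 3.06% of features. Upk3b differed by 0.66 (95% interval 0.14 to 1.18; limma adjusted p = 1.00), Gpm6a by 0.58 (-0.06 to 1.21) and Lrrn4 by 0.38 (-0.05 to 0.81). Without saline 1 h replicate 1, whose 7 levels were all among the 5 lowest of their genes, the difference of Upk3b was 0.35 and that of Lrrn4 0.18. With array weights Upk3b passed at this time, at 0.50 (limma adjusted p = 0.0290), in a fit that called 3512 of all features where the unweighted fit called 0. At 1.5 h 4 genes, Msln, Upk3b, Upk1b and Wt1, had every oleic acid array below every saline array, against 15.2% of features at this time with 2 arrays in each group. Wt1 differed by -0.49 (-1.16 to 0.17) and Upk3b by -0.42 (-1.06 to 0.22). The saline 1.5 h arrays lay on slides 1 and 2 and those of oleic acid on slide 2. Within slide 2 the values were -0.76 for Wt1 and -0.51 for Upk3b, and that of Krt19 turned from -0.13 to 0.11. Genes of heart muscle and fat, tissues that adjoin the lung root, moved the same way at this time: all 8 measured heart muscle genes and all 5 measured fat cell genes lay below 0, with medians of -0.67 and -1.02. Their part in the mesothelial values was not tested.

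At 3 h 1 gene stood apart, Wt1 above saline by 0.29 (-0.38 to 0.95), beside 17.4% of features. The saline 3 h arrays and oleic acid 3 h replicate 1 lay on slide 2, and oleic acid 3 h replicate 3 on slide 3. Within slide 2, with that 1 oleic acid array, Wt1 differed by 0.30, while Msln differed by -0.31 against 0.00 over both slides. Here the array left out matters: with all 31 arrays the median difference of the set at 3 h was -0.58. All 7 levels on oleic acid 3 h replicate 2 were under those of the 29 arrays used, with Msln at 2.20 and Krt19 at 2.51. The 75th percentile subtracted there was 11.8, beside 7.94 to 9.07 on the 29 arrays, and 99.6% of its spots were above background. The authors' deposited values, scaled in another way, were not low there. Upk3b was 10.70, beside 10.67 on saline 1.5 h replicate 2, and Msln 13.63, beside group means of 13.34 to 13.68. At 4 h Lrrn4 and Gpm6a stood above saline without overlap, as did 8.37% of features, by 0.62 (0.14 to 1.09) and 0.72 (0.01 to 1.43), and Msln stood below it, as did 14.1%, by -0.26 (-0.64 to 0.12). All 4 h arrays shared slide 3. For Lrrn4 and Gpm6a the saline 4 h group is also the lowest group of all, and without saline 4 h replicate 1 the difference of Lrrn4 was 0.28. All 5 fat cell genes also lay above 0 at 4 h, with a median of 1.83, and their part was not tested.

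At 18 h Lrrn4 (0.49, 0.01 to 0.96) and Krt19 (0.25, -0.15 to 0.66) stood above saline, beside 5.19% of features, with treatment and slide not to be told apart. At 24 h, where all arrays shared slide 4, Lrrn4 stood above saline by 0.61 (0.13 to 1.09), beside 6.11%, and Krt19 below by -0.27 (-0.67 to 0.13), beside 15.2%. Upk3b (0.50, -0.08 to 1.08), Gpm6a (0.56, -0.15 to 1.26), Wt1 (0.45, -0.16 to 1.05) and Upk1b (0.33, -0.10 to 0.76) also had values above 0 at 24 h with overlap. These 4 rest in large part on saline 24 h replicate 1, the lowest array of Upk1b, Wt1 and Gpm6a. Without it Upk3b differed by -0.01, while Lrrn4 still differed by 0.63.

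**Figure D2:**
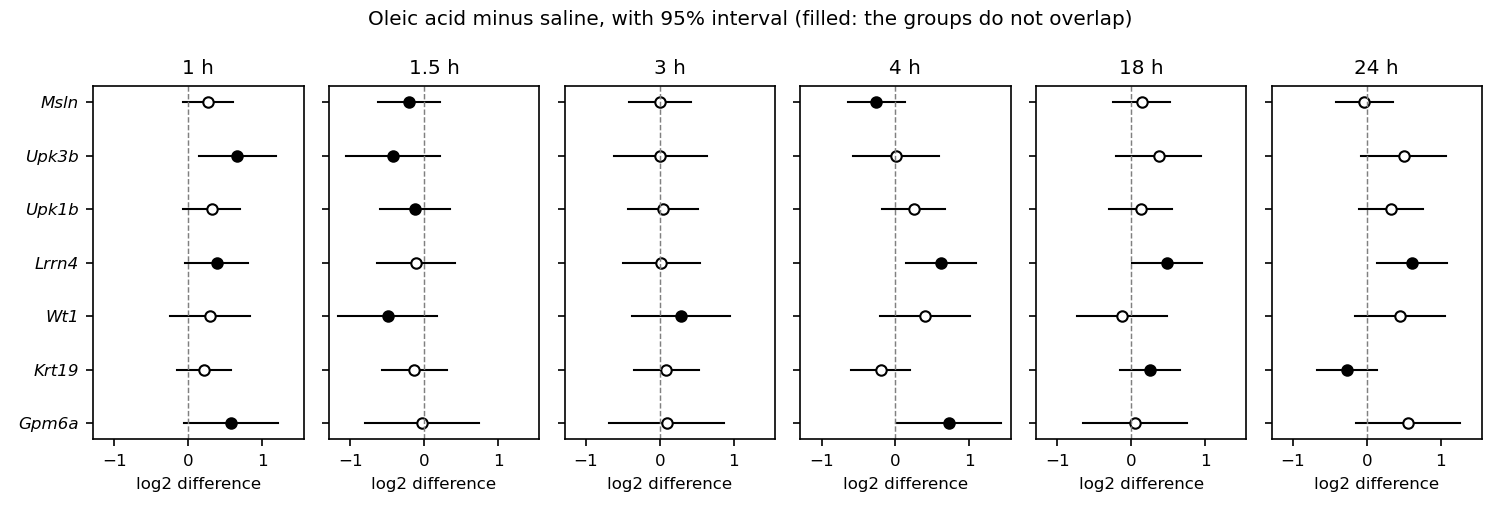
Oleic acid minus saline for each gene (rows) at each of 6 times (panels), as log2 difference with its 95% interval from limma; filled points mark groups that do not overlap. All 7 points lie above 0 at 1 h and below 0 at 1.5 h, and Lrrn4 is filled at 1, 4, 18 and 24 h.

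Means over times give narrower intervals. Over 1 to 4 h the differences ran from -0.05 for Msln to 0.34 for Gpm6a (-0.02 to 0.70) and 0.23 for Lrrn4 (-0.02 to 0.47), with none passing, against 0.00341% of features. Over 18 and 24 h Lrrn4 differed by 0.55 (0.21 to 0.89; limma adjusted p = 0.944) and Upk3b by 0.43 (0.02 to 0.84; adjusted p = 0.944), against 0.0171% called. Over all 6 times Lrrn4 differed by 0.33 (0.14 to 0.53; limma adjusted p = 0.412), with 5 of 6 times above 0, and Gpm6a by 0.33 (0.03 to 0.62; adjusted p = 0.414), also with 5 of 6. Msln (-0.01, -0.17 to 0.14) and Krt19 (-0.01, -0.18 to 0.16) had the narrowest intervals about 0. No feature of the array passed in the mean of 6 times (0%). The moderated F test over the 6 times called 0.0171% of features and none of these 7. The effect at 18 and 24 h minus that at 1 to 4 h called 0% of features. It was 0.37 for Upk3b (-0.14 to 0.88) and 0.32 for Lrrn4 (-0.10 to 0.74).

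Before adjustment, single genes of the set had a limma p under 0.05, which must be read against the share of all features that did. At 1 h this was 1 gene, Upk3b, beside 4.04% of features, at 4 h 2 genes, Lrrn4 and Gpm6a, beside 7.41%, and at 18 h and 24 h Lrrn4 alone, beside 2.43% and 4.56%. There was none at 1.5 h (1.62% of features) or at 3 h (6.35%). In the mean of 1 to 4 h there was again none (7.55%), in that of 18 and 24 h there were 2, Lrrn4 and Upk3b (3.16%), and in that of 6 times 2, Lrrn4 and Gpm6a (11.8%). The change of the effect from early to late times had none (1.47%). Lrrn4 thus appears in 5 of these 10 comparisons, which share arrays. Groups with every oleic acid array below every saline array were 0 of the 7 at 18 h, beside 6.67% of features.

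The other genes of the mesothelium were read from fixed lists, whose members, like the 7 genes, were chosen with earlier results of these data known. In the mean of 6 times 9 of the 15 measured other mesothelial genes lay above 0 (median 0.04, beside -0.05 over all features), none of them passing. Muc16, the mucin bound by mesothelin, differed by 0.16 (-0.03 to 0.35), Rspo1, a secreted enhancer of Wnt signals, by 0.11 (-0.03 to 0.25) and Aldh1a2, which makes retinoic acid, by 0.06 (-0.07 to 0.20). The other 6 lay below 0, among them Nkain4 at -0.14 (-0.30 to 0.02), Igfbp6, which binds insulin-like growth factors, at -0.12 (-0.26 to 0.02) and Rarres2, the chemoattractant chemerin, at -0.09 (-0.24 to 0.06). None of the 3 simple keratins lay above 0, with -0.07 for Krt18 and -0.08 for Krt8. Among the uroplakins Upk2 differed by 0.12 and Upk1a by -0.01, and of 16 genes of the mesothelial to mesenchymal transition 6 lay above 0 with a median of -0.01. No gene of these lists passed in any comparison of oleic acid with saline.

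Time within a treatment was compared next. Between 18 to 24 h and 1 to 4 h, limma called 2.77% of features in saline mice and 4.96% in oleic acid mice, but none of the 7 genes in either. In saline mice 1 of 7 lay above 0, with -0.31 for Upk3b (-0.69 to 0.08) and -0.27 for Upk1b (-0.56 to 0.01), and in oleic acid mice 4 of 7. Before adjustment no gene of the set had a p under 0.05 in either, beside 14.9% and 19.2% of features. Saline lungs of 18 h and 4 h shared a slide, and 5.4% of features differed between them. Wt1 was 0.92 higher at 18 h (0.26 to 1.59; limma adjusted p = 0.0947) and Lrrn4 0.74 higher (0.21 to 1.26; adjusted p = 0.0904), close to the threshold without passing it. These 2 also had an unadjusted p under 0.05, as did 22.2% of features. Gpm6a was 0.68 higher (-0.10 to 1.45; adjusted p = 0.292), and Upk1b and Upk3b differed by 0.04 and 0.07. Without saline 4 h replicate 2 Lrrn4 passed, at 1.08 (adjusted p = 0.0481), and without saline 4 h replicate 1 it was 0.39. With the replicate number as a block Wt1 passed (adjusted p = 0.0461), in a fit that called 1482 features. With median centring the median of all features in this comparison moved by -0.47 and that of the 7 genes from 0.07 to -0.39. Between oleic acid lungs of 24 and 18 h, which shared slide 4, 0.0102% of features and none of the 7 genes passed, and none of the 7 had an unadjusted p under 0.05, beside 2.19%.

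Of the 15 measured other mesothelial genes only Cldn15, and of the measured uroplakins only Upk1a, passed from early to late times. Both did so in both treatments, beside 2.77% of features in saline and 4.96% with oleic acid. With oleic acid the early and late arrays lay on separate slides, so those calls may reflect slide as well as time. Cldn15, a claudin that forms cation pores in tight junctions and is kept by mesothelium, was 0.46 higher at 18 to 24 h than at 1 to 4 h in saline (limma adjusted p = 0.0194) and 0.38 higher with oleic acid (adjusted p = 0.0159). Upk1a, the partner uroplakin of the bladder, fell by 0.70 in saline and by 0.45 with oleic acid (limma adjusted p = 0.00400 and 0.0147). From 4 to 18 h in saline, where 5.4% of features passed, Cldn15 rose by 1.05 (limma adjusted p = 0.00236) and Upk1a fell by 1.13 (adjusted p = 0.00369). Bnc1, a zinc finger factor of mesothelium and keratinocytes, rose by 3.00 (1.91 to 4.08; adjusted p = 0.00369), with means of -3.82 at 4 h, where 1 of 2 arrays was above background, and -0.82 at 18 h. These saline calls from 4 to 18 h held when any 1 array was left out, but not in a fit to slide 3 alone (adjusted p = 0.181 for Cldn15, 0.206 for Upk1a and 0.216 for Bnc1). The Cldn15 call over all saline times was lost without saline 18 h replicate 1, saline 18 h replicate 2 or saline 24 h replicate 2. Among transition genes Snai1, a repressor of epithelial junction genes, rose by 1.08 in saline from early to late times (adjusted p = 0.00442) and by 0.67 with oleic acid (adjusted p = 0.0197). The oleic acid call of Snai1 was lost without replicate 2 at 1.5 h, replicate 1 at 18 h, or replicate 1 or 3 at 24 h (limma adjusted p = 0.0538 to 0.0734). The time calls of Cldn15, Upk1a, Bnc1 and Snai1 were also lost with median centring and with all 31 arrays. No difference between the treatments in these time courses passed.

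The 7 genes were then compared with each other across the 29 arrays, to see whether they move as 1 layer of cells. Upk3b, Upk1b, Lrrn4, Wt1 and Gpm6a varied together, in the sense that all 10 pairs among them had a Pearson r between 0.54 and 0.86 and a Spearman rho between 0.56 and 0.86. Over the 21 pairs of the set, adjusted permutation p-values of these 10 were at most 0.00538. Gpm6a and Upk1b were the closest (r = 0.86), followed by Gpm6a and Upk3b (r = 0.80) and Upk3b and Upk1b (r = 0.78). On deviations from the group means the 10 r lay between 0.45 and 0.85, so the likeness was also seen among mice of 1 treatment and time. Without the 2 arrays farthest from the median they lay between 0.48 and 0.78. Within single slides of 6 to 8 arrays they ran from 0.03 to 0.98. These 5 genes were grouped after their values were seen, and the grouping itself has no test.

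Msln and Krt19 stood outside. They correlated with each other at r = 0.46 (rho = 0.44; adjusted permutation p = 0.0219), and at 0.37 without the 2 arrays farthest from the median. With the 5 other genes their r lay between -0.25 (Wt1 with Krt19) and 0.46 (Msln with Upk3b; adjusted permutation p = 0.0217), and the latter was 0.32 without those 2 arrays. This depends on the scaling. In the authors' deposited values, which are scaled in another way, Msln correlated with the 5 at 0.51 to 0.76. Krt19 did so at 0.10 (Wt1) to 0.47 (Lrrn4), while the 10 pairs among the 5 gave 0.62 to 0.86.

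**Figure D3:**
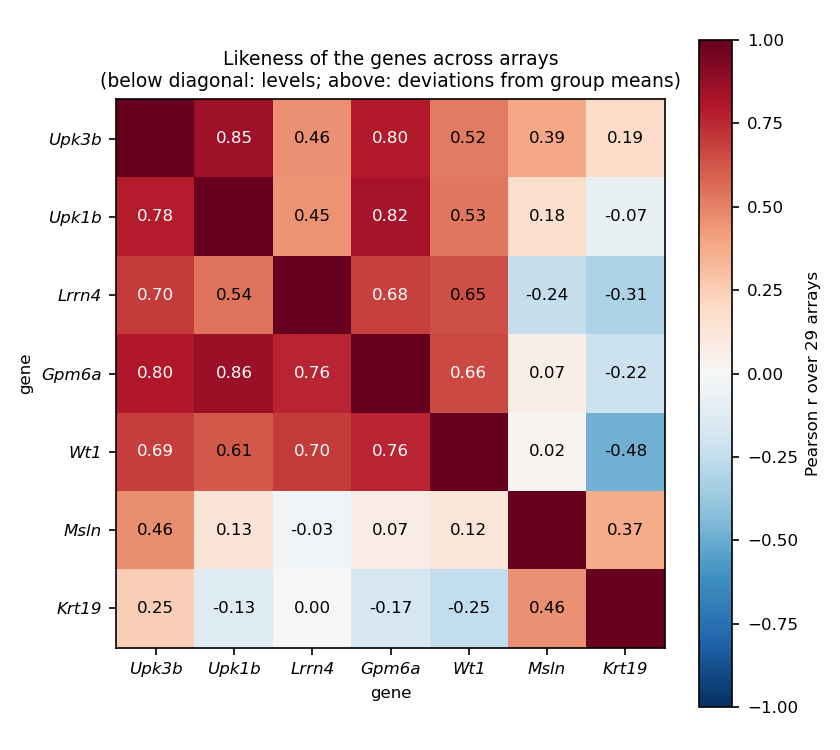
Pearson r between the genes over 29 arrays, below the diagonal for levels and above it for deviations from the group means, on a colour scale from -1 to 1. The upper left block of Upk3b, Upk1b, Lrrn4, Gpm6a and Wt1 is red throughout (0.54 to 0.86 for levels), and Msln and Krt19 are pale against it.

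To show the genes array by array, each was centred on its mean over 29 arrays and the 7 were averaged per array. Saline 1 h replicate 1 was lowest at -0.61, followed by saline 24 h replicate 1 at -0.52, saline 4 h replicate 2 at -0.36 and saline 4 h replicate 1 at -0.35. The highest were saline 1.5 h replicate 2 at 0.42 and oleic acid 18 h replicate 3 at 0.33. On saline 24 h replicate 1 the split of the set is plain, with Wt1 at -1.65 and Gpm6a at 0.28, each the lowest of its gene, beside Krt19 at 5.50, near its highest. The 4 lowest arrays were all saline, but so was the highest.

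**Figure D4:**
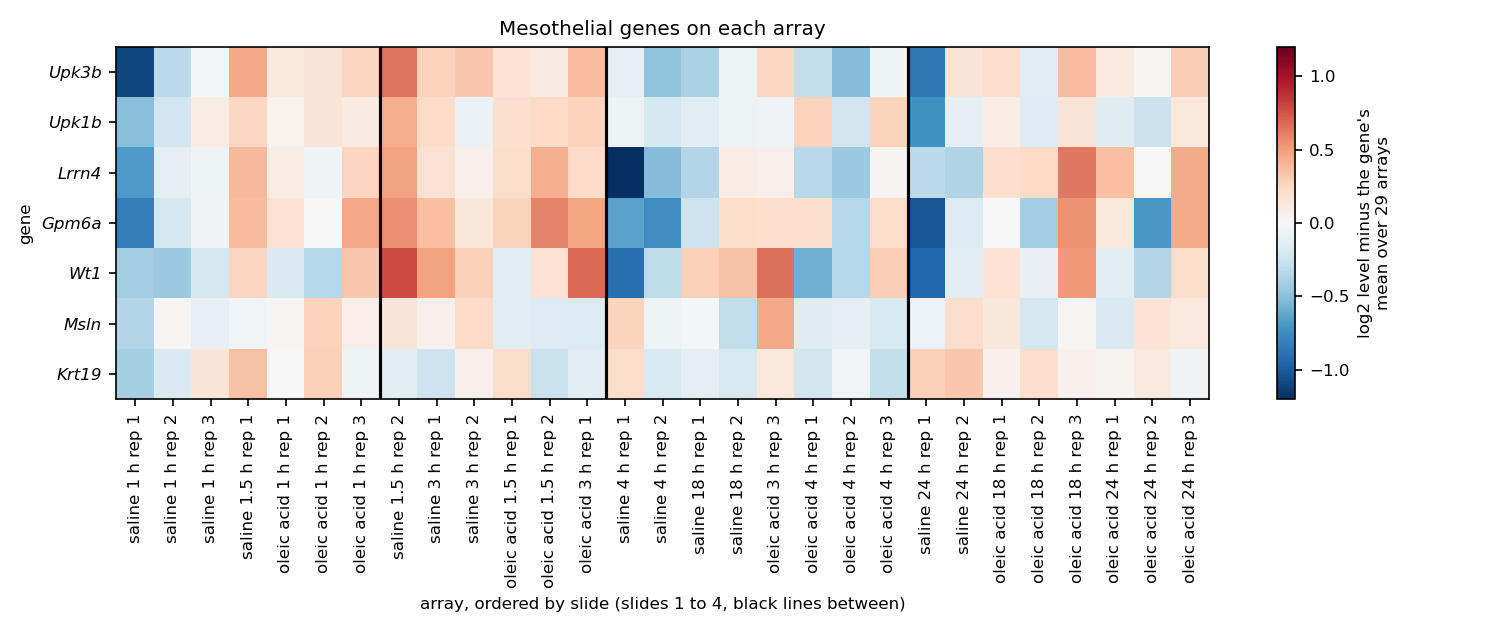
Log2 level of each gene (rows) on each of the 29 arrays (columns, ordered by slide with black lines between slides) minus the mean of the gene, red for higher and blue for lower. Saline 1 h replicate 1 is blue in all 7 rows, and saline 24 h replicate 1 is blue for the upper 5 genes but not for Krt19.

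Other measures moved along with the mean of the 7 genes, and their part in it was not tested. Over 29 arrays its r was 0.60 with the mean of the 15 other mesothelial genes (rho = 0.61, and 0.19 on deviations from the group means). With the log2 75th percentile of the array, which is subtracted from every level, r was 0.52 (rho = 0.47). On deviations from the group means it was 0.58, the highest of all measures compared here. The percentile was 8.38 in saline and 8.64 with oleic acid on average. For Lrrn4, the gene with the most separate groups, the r with this percentile was 0.63, and for Gpm6a 0.65, while for Msln it was -0.43. On deviations these were 0.65, 0.79 and -0.40. The r with the share of spots above background was -0.03, but -0.36 on deviations, and within slides it ran from -0.64 (slide 1) to 0.81 (slide 2). Saline 1 h replicate 1, the lowest array of the set, had 81.7% of its spots above background, near the highest share of 82.4%. Among lists of other cells and tissues r was 0.46 with adventitial fibroblast, 0.40 with ciliated, 0.40 with heart muscle, -0.40 with alveolar type 2 and 0.34 with fat cell genes. It was -0.28 with thymus, 0.22 with skeletal muscle, 0.05 with airway secretory and 0.01 with alveolar type 1 genes. On deviations from the group means the order was another one, with 0.53 for adventitial fibroblast, 0.51 for alveolar type 1, 0.31 for fat cell, 0.17 for ciliated, 0.13 for heart muscle, 0.06 for airway secretory, -0.05 for skeletal muscle, -0.17 for alveolar type 2 and -0.35 for thymus genes. Among related lists it was 0.31 with development factors, 0.22 with transition genes, 0.14 with paralogs of the 7, 0.04 with other uroplakins and -0.28 with simple keratins, and on deviations 0.16, 0.15, -0.30, -0.58 and -0.12 in the same order. The mean of the fat cell genes was 0.68 and 0.90 above its average on the 2 saline arrays of 1.5 h, and that of the heart muscle genes 0.34 and 1.45, in the group where 4 of the 7 mesothelial genes had their highest mean. The fat mean was -1.29 and -0.44 on the saline arrays of 4 h, where 3 of the 7 were lowest. In oleic acid against saline all 5 fat cell genes lay above 0 at 1, 3, 4 and 24 h and below it at 1.5 and 18 h, while 6 of the 7 mesothelial genes lay above 0 at 18 h.

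**Figure D5:**
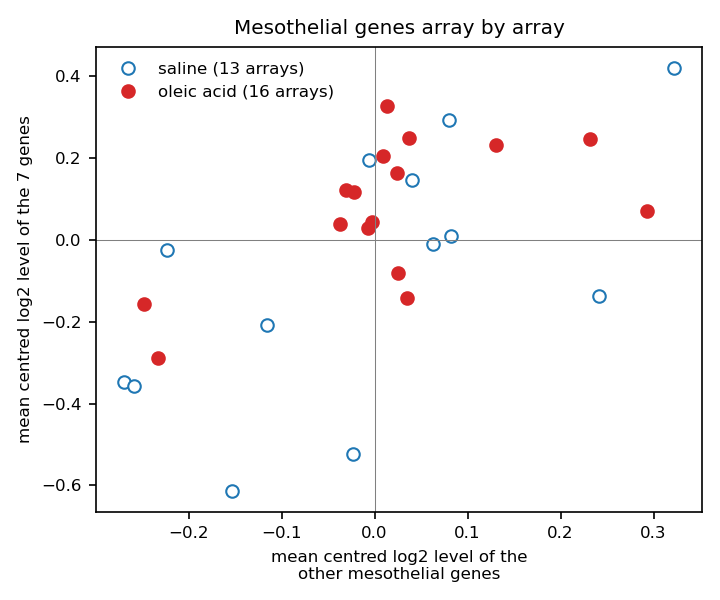
Mean centred log2 level of the 7 genes (vertical axis) against that of the 15 other measured mesothelial genes (horizontal axis) on each of the 29 arrays, open blue for the 13 saline and filled red for the 16 oleic acid arrays. The points rise together (r = 0.60), with the lowest at -0.61 and the highest at 0.42 on the vertical axis. The 15 genes include Lgals7, which was above background on only 7 of the 29 arrays.

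Many features outside the mesothelial lists were as like these genes as they were to each other. Of 29309 features, 1081 (3.69%) had an r above 0.7 with Upk1b and 876 (2.99%) with Gpm6a, against 311 for Upk3b, 252 for Lrrn4, 61 for Krt19, 51 for Wt1 and 12 for Msln. Gpm6a had 41 features closer to it than Upk1b (0.140%), and Wt1 had 5 closer than Gpm6a (0.0171%). Other pairs of the 5 ranked far lower. Upk1b had 2603 features closer to it than Lrrn4 (8.88%) and 1947 closer than Wt1 (6.64%), and Lrrn4 had 1459 closer than Upk1b (4.98%). The 10 named genes whose level over 29 arrays was most like the mean of the set were Man1c1, Sulf1, Fundc1, Abcc1, Tmem123, Lsm14a, Tmod3, Mrvi1, Hmgn3 and Ctbp2, with r from 0.88 to 0.84. Man1c1 trims mannose from glycoproteins in the Golgi and Sulf1 removes sulfate from heparan sulfate. None of the 10 is on a mesothelial list. Gene by gene the closest were Cd2ap for Upk1b (0.93), Tmod3 for Gpm6a (0.92), Arhgap18 for Lrrn4 (0.87), Man1c1 for Upk3b (0.86) and Tbc1d32 for Wt1 (0.76). Msln was closest to Gpr108 (0.79). Krt19 was closest to Tppp3 (0.86), a tubulin-binding protein that is on the list of ciliated cells. The r of Krt19 with the mean of airway secretory genes was 0.43 (0.68 on deviations from the group means) and with that of ciliated genes 0.42. Those of Wt1 were -0.12 and 0.22.

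RefSeq windows before the start sites on GRCm38.p6 were at hand for 3 of the 7 genes, all 3 among those that moved together. Between Upk3b and Lrrn4 r was 0.70. With Gpm6a, whose windows are not printed, it was higher, at 0.80 for Upk3b and 0.76 for Lrrn4. The 250 bases before the start of Upk3b (chr5:136038246-136038495, plus strand) and of Lrrn4 (chr2:132880863-132881112, minus strand) are printed 5′ to 3′ on the strand of the gene, with the E-box CANNTG in capitals:
Upk3b: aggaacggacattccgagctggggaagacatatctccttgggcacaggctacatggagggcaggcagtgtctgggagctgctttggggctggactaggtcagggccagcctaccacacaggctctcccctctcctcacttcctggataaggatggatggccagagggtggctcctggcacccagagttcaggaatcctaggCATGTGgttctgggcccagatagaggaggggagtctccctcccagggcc
Lrrn4: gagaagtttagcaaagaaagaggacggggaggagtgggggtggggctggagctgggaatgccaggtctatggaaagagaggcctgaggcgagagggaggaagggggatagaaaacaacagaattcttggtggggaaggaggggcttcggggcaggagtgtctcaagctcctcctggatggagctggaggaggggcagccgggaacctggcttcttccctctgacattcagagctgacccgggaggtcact
The E-box was searched on both strands, which read alike. It occurs 1 time in the Upk3b window, 0 times in that of Lrrn4, and 3 times and 1 time in the 2 windows of Gpm6a, against 66.2% of all 32851 windows of this length with at least 1. The letters GCGGGGGCG, a site known to bind WT1 and EGR1, occur in 2.57% of all windows on either strand and in none of these 4. The letters GGGCGG, the GC box, occur in 32.7% and in none of these 4, and the letters TATAAA in 12.4% and in 1 of the 4, a window of Gpm6a. Bases G and C make up 60.8% of the Upk3b window, 59.2% of that of Lrrn4, and 44.4% and 33.6% of those of Gpm6a.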

How the data were processed

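RNA of whole mouse lung, 1 mouse per array, was hybridised to Agilent arrays with 1 colour (Cy3), per the labels' protocols. Spot intensity, background subtracted by Agilent Feature Extraction 10.5.1.1, is as deposited, per the file headers and the submitters' processing notes, and so are the flags for other properties of a spot (above background, saturated, outlier). The authors' deposited table holds log2 values of unstated scaling whose sorted columns differ by at most 0.0179, and it served as an alternative.

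From the intensities, log2 values minus the 75th percentile of each array were computed without control and outlier spots, averaged per probe. Features detected above background on all arrays in 1 or more groups were kept, with the brightest probe per gene. Of 55681 probes, 26582 were named by accession, 3094 by the symbol of the file and 26005 not at all. Group means were fitted with limma 3.58.1 (lmFit and eBayes, R 4.3.3) with Benjamini-Hochberg adjustment over 29310 features at 0.05, for 15 comparisons. The scripts were tested on simulated data. Pearson and Spearman correlations between the genes were tested with 100000 permutations, adjusted over 21 pairs. Arrays with a spike-in slope outside 0.8 to 1.2 were left out.

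The members and the gene lists were chosen with earlier results of these data known. The text names all 7 members, the 10 genes with a symbol most like their mean, any measured gene of the mesothelial, keratin, uroplakin and paralog lists, and up to 4 of each other list with the smallest p. The genes closest to each single member were chosen after their values were seen. Alternatives were other scalings, background corrections, filters, blocks, array weights, and each array left out in turn. No genome was used, so probes were not placed in exons.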

Additional observations from a re-analysis of the deposited data

Results flagged for a closer look

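For 3 genes the oleic acid arrays all lay on one side of saline at 1 time and all on the other side at another. The difference between the times was not tested in any of them. Upk3b was above saline at 1 h (0.66 on the log2 scale) and below it at 1.5 h (-0.42), a gap of 1.08. Wt1 was above at 3 h (0.29) and below at 1.5 h (-0.49), a gap of 0.78. Krt19 was above at 18 h (0.25) and below at 24 h (-0.27), a gap of 0.52, and at 18 h the treatments lay on separate slides. With 2 or 3 arrays per group, groups that do not overlap are common at some of these times. Of all features, 3.06% lay wholly above saline at 1 h, 17.4% at 3 h and 5.19% at 18 h. Wholly below it lay 15.2% at 1.5 h and 15.2% at 24 h. The share of features that changed sides between 2 times in this way was not counted.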

How the results depend on the processing

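In 16 alternative settings and with each of 29 arrays left out, no gene of the 7 passed in any comparison except in 3 cases. With array weights 1 gene passed at 1 h, Upk3b (0.50; limma adjusted p = 0.0290), among 3512 features called with those weights. With the replicate number as a block 1 gene passed from 4 to 18 h in saline, Wt1 (0.92; adjusted p = 0.0461), among 1482 features, and leaving out 1 array gave between 0 and 1 gene there. Of 12 pairs of arrays with the same number, 7 had deviations correlated above 0.1 (range -0.77 to 0.63). In a group of 2 arrays the deviations mirror each other, so these pairs are not all separate observations. Whether the numbers pair the samples cannot be told from them. The median r of the 21 pairs of genes, 0.46, lay between 0.27 and 0.73 in the alternatives, one of which, the authors' deposited table (0.62), was chosen after seeing the data. Of 1477 values under other settings 98 had the other sign, 29 of them with median centring, which turned the median of the genes at 1.5 h to 0.16 and at 3 h to -0.13. Of 2842 values with 1 array left out 108 had the other sign. Over all features, calls at 1 h ranged from 0 to 3512, at 1.5 h from 0 to 403, at 3 h from 0 to 124, at 4 h from 0 to 29, at 18 h from 0 to 350, at 24 h from 0 to 26, in the mean of 6 times from 0 to 181, and from 4 to 18 h in saline from 1 to 1907. The number of arrays per group, 2 or 3, limits what can be detected.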
